A study of Mus musculus with 2 samples.

Results

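The subunit genes of the mitochondrial respiratory chain and ATP synthase were examined in MS1, a mouse cell line of immortalised endothelium taken from the islets of the pancreas. Members were all protein-coding genes of both deposited tables whose GENCODE symbol belongs to the Ndufa, Ndufb, Ndufc, Ndufs and Ndufv families, Ndufab1, Sdha to Sdhd, Uqcr, Cyc1, Cox4 to Cox8 or Atp5, or is an mt- gene for such a subunit. Assembly factors named Ndufaf and pseudogenes named -ps were left out. The rule uses no measured value. It found 88 members among 11405 listed genes, 78 encoded in the nucleus and 10 in mitochondrial DNA. By complex they were 43 genes of complex I, 4 of complex II, 10 of complex III, 14 of complex IV and 17 of complex V. Cells of the Pspc1 knockdown group carried a lentiviral short hairpin RNA against Pspc1, a paraspeckle RNA-binding protein. Cells of the LacZ group, labelled wild type, carried the same kind of vector with a hairpin against LacZ, a bacterial gene. Each group held 1 library of poly-A RNA, so no difference has a replicate check and no p-value was computed. With 1 hairpin and 1 library per group, differences that come with the hairpin, the culture or the library cannot be told apart.

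The respiratory chain passes electrons from NADH and succinate to oxygen and pumps protons across the inner mitochondrial membrane. Complex I oxidises NADH, complex II succinate, complex III hands electrons to cytochrome c, and complex IV reduces oxygen. Complex V, the ATP synthase, makes ATP from the proton gradient. All but complex II are mosaics of nuclear-encoded proteins, made in the cytosol and imported, and of a few hydrophobic core proteins made inside the organelle. Cultured endothelial cells are known to draw much of their ATP from glycolysis.

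The values are the authors' scaled gene counts, called deposited values below. Within each library every value was a multiple of 1 smallest step. Counting in such steps, the listed genes held 53518762 reads in the knockdown library and 64009912 in the LacZ library. Log2 ratios are knockdown over LacZ, with a pseudocount of 0.5 added to each value. A gene is called past the smaller fold where its log2 ratio reaches 0.322 above or below 0, and past the larger where values differ by 2-fold. Intervals are 95% exact counting intervals of the ratio without pseudocount and cover counting error only. Pspc1 itself had a value of 3.78 in the knockdown library and 28.8 in the LacZ library. Of 13 endothelial markers 10 were listed, with summed values of 4978 in the knockdown and 5097 in the LacZ library, led by Pecam1 (2175 and 2258). Most single markers had log2 ratios below 0, among them Kdr (-0.94), Tek (-0.89), Sox18 (-0.80), Cdh5 (-0.75) and Erg (-0.49). Only Esam (0.59), Tie1 (0.33) and Emcn (0.01) were above 0. The lists for fibroblasts and mural cells summed to at most 2.38 in either library, and no beta cell or acinar marker was listed. Krt18 was the 1 listed epithelial marker (36.9 in the knockdown and 23.9 in the LacZ library), and Cd68 the 1 listed macrophage marker (124 and 103). In bulk RNA a smaller number of cells and less RNA per cell cannot be told apart.

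Some mt- genes have a second copy in the nuclear genome, and whether this bears on their values was not tested. The start of mt-Co2 and of its annotated copy Gm28661 on chromosome 1 (mm10, GENCODE M21) are shown here, with a stretch of mt-Co1 at the edge of its copy Gm29216, because they show how far a read could tell the copies apart. Capitals mark bases that differ within a pair, of which the first pair has none and the second 6.
mt-Co2, chrM:7013-7072, plus strand: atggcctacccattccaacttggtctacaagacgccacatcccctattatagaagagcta
Gm28661, chr1:24615506-24615565, minus strand: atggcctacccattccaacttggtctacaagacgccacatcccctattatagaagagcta
mt-Co1, chrM:6381-6440, plus strand: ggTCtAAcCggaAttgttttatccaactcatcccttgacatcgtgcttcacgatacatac
Gm29216, chr1:24616138-24616197, minus strand: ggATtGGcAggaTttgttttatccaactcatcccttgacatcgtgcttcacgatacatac
Of 7 mt- genes aligned with such a copy, 6 had no differing base over the aligned length. Gm28661 matched mt-Co2 over 681 of 681 bases, Gm28437 matched mt-Co3 over 783 of 783, and Gm29216 differed from mt-Co1 at 1 of 483 aligned bases. That alignment leaves out bases at the copy's edge, 483 of its 492 being aligned, and the stretch shown above includes that edge.

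Promoters of 4 nuclear members are shown, among them those with the highest (Uqcr10) and the lowest (Ndufv2) log2 ratio of any nuclear member. The 4 are Uqcr10, Ndufa8 and Cox6a1, which were higher in the knockdown library, and Ndufv2, which was lower. The 250 bases before each start are from RefSeq (GRCm38.p6), read in the direction of the gene. Capitals mark matches to motifs of factors known to act on nuclear respiratory genes: the NRF1 motif, CCGGAAG for ETS factors such as GABPA, and AAGATGGC for YY1, searched on both strands.
Uqcr10, chr11:4704345-4704594, minus strand: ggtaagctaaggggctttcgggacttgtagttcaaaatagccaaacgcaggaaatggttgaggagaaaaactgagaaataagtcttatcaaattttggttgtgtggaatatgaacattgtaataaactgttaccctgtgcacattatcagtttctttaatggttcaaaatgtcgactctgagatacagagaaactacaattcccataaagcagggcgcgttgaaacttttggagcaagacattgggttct
Ndufa8, chr2:36049339-36049588, minus strand: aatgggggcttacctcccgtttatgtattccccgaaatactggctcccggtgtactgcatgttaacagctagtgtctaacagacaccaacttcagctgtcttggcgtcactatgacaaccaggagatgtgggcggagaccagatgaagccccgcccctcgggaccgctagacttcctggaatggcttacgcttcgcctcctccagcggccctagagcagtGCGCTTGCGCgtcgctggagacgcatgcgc
Cox6a1, chr5:115348959-115349208, minus strand: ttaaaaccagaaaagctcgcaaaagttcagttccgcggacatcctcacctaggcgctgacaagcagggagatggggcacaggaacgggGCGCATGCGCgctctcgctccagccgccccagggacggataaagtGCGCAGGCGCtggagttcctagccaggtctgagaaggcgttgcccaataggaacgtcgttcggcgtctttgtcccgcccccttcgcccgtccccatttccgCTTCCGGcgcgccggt
Ndufv2, chr17:66101560-66101809, minus strand: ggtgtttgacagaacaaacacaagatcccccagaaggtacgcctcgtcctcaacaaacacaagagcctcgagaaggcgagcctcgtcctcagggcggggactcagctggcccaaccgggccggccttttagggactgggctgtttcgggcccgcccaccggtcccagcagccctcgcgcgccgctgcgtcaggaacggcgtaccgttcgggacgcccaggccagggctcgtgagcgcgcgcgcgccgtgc
Cox6a1 held 2 matches to the NRF1 motif and 1 to the ETS motif, Ndufa8 held 1 NRF1 match, and the letters were not in the windows of Uqcr10 and Ndufv2. Cox6a1 (log2 ratio 0.39) is not at an end of the range. Cox7a2l (0.44) and Ndufa4 (0.42) were higher and had no match to any of these motifs. A promoter was found for 65 of the 78 nuclear members. In windows of 300 bases, 250 before and 50 after the start, the NRF1 motif stood in 16 of the 65 (24.6%), against 12.9% of the 2989 listed genes averaging 50 or more over both libraries and 4.78% of all 27025 genes of the table. The ETS motif stood in 23.1% of member promoters, against 22.3% and 9.12%, and the YY1 motif in 13.8%, against 6.22% and 2.88%. Members of mean 50 or more with an ETS match had a median log2 ratio of 0.25 (15 genes) and those without 0.11 (46 genes). For the NRF1 motif the medians were 0.17 with a match (16 genes) and 0.15 without (45 genes), and for YY1 0.09 (9 genes) and 0.19 (52 genes). Matches were unevenly spread over the complexes, whose medians also differed. The ETS motif stood in 12.1% of complex I promoters and in 33.3% of those of complex IV. The YY1 motif stood in 21.2% of complex I promoters and in 0% of those of complexes II, III and IV. Motif and complex were not separated in these medians, nor were length and GC removed. A match is a description of letters, not of binding.

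Nuclear subunit genes were slightly higher in the knockdown library, and none differed by 2-fold. Of the 88 members 77 averaged 50 or more over both libraries, 72 of them nuclear and 5 mt-. No member was at least 2-fold higher or lower, where 0.551% of all 3629 listed genes of that level were 2-fold higher and 0.937% lower. The median log2 ratio was 0.17 over the 72 nuclear genes and 0.07 over all 3629. A log2 ratio above 0 was found for 62 of the 72, or 86.1%, against 60.1% of all genes, and 10 were below 0, against 39.9% of all genes. Past the smaller fold 13 nuclear members were higher (18.1%), near the background of 15.9% of all genes. Ndufv2 alone of the 72 was lower past it, against 10.7% of all genes, and of the mt- members only mt-Nd5. The summed value of the 72 genes was 18780 in the knockdown library and 16580 in the LacZ library, a log2 ratio of 0.18. The counting interval lay above 0 for 57 of the 72 genes, below 0 for 5 and across 0 for 10. The same counts were not made over all genes, so these have no background to be set against. They also depend on the scaling, since a scaling factor moves every log2 ratio.

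**Figure D1:**
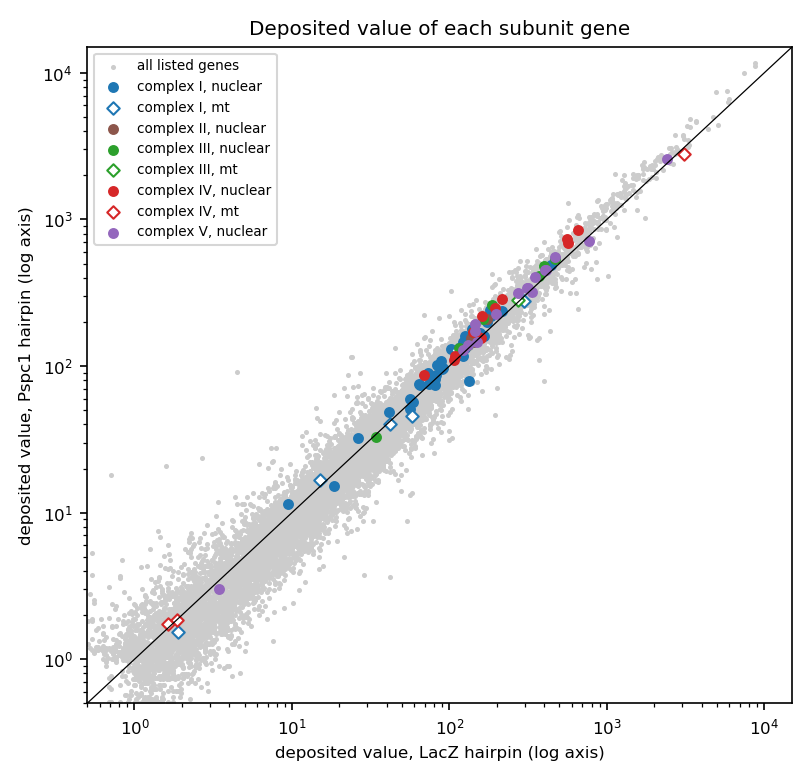
Deposited values of each member in the knockdown library (vertical, log axis) and the LacZ library (horizontal, log axis), coloured by complex, with all listed genes in grey and the line of equality. Filled circles are nuclear genes and open diamonds mt- genes. Nuclear members lie close to the line, Ndufv2 (78.6 in the knockdown and 134.1 in the LacZ library) farthest below it among those of mean 50 or more.

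Complex I, the NADH dehydrogenase, had the widest spread and the lowest nuclear median, 0.10 over 33 genes of mean 50 or more. Of these 27 (81.8%) had a log2 ratio above 0, against 60.1% of all genes. At a mean of at least 100 the median of complex I was 0.17 and that of complex V was lower (0.14). Ndufa8 (ENSMUSG00000026895), an accessory subunit of the membrane arm, had 257.2 in the knockdown library and 187.5 in the LacZ library, a log2 ratio of 0.45 (interval 0.42 to 0.49). Ndufa4 had 242.8 and 181.5 (0.42). Although named for complex I and counted there by its symbol, its protein is now known as a subunit of complex IV. Counted there, it left the median of complex I at 0.10 and gave complex IV 0.33. The accessory subunit genes Ndufb4 (130.7 and 102.0), Ndufa3 (178.0 and 139.1) and Ndufa7 (160.8 and 125.8) were also past the smaller fold, with log2 ratios of 0.36, 0.35 and 0.35. The Ndufa family had a median of 0.25 over 13 genes, the Ndufb family 0.12 over 8, and the Ndufs family 0.08 over 7. The Ndufc family had 0.13 over 2 and the Ndufv family -0.12 over 3. With the length and GC fit described below removed, these medians were 0.06 for Ndufa, 0.04 for Ndufb, -0.06 for Ndufs, 0.08 for Ndufc and -0.17 for Ndufv.

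The catalytic core of complex I did not move as 1 block. Ndufv2 (ENSMUSG00000024099, mm10 chromosome 17, 66078638 to 66101559, minus strand) encodes the small iron-sulfur subunit that sits beside the NADH-binding subunit. It had 78.6 in the knockdown library and 134.1 in the LacZ library, 1.71-fold lower, with a log2 ratio of -0.77 (interval -0.82 to -0.72, 3991 and 8749 reads). Its direct partner Ndufv1, which binds NADH and FMN, had 199.5 and 174.2 (0.20). Ndufv3, an accessory subunit of the same module, had 74.3 and 80.8 (-0.12). Of the iron-sulfur and quinone-site core genes, Ndufs8 had 218.1 in the knockdown library and 184.6 in the LacZ library (0.24), Ndufs7 95.2 and 89.9 (0.08) and Ndufs3 81.1 and 80.9 (0.00). Ndufs1, the large iron-sulfur subunit, lay under the minimum level, with 15.3 and 18.5 (-0.27, interval -0.41 to -0.14). Ndufv2 was thus the only nuclear member of mean 50 or more with a log2 ratio under -0.14, the next lowest being the accessory gene Ndufa6 (51.2 and 56.2, -0.13).

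Complexes II and III had log2 ratios above 0 in every nuclear member of mean 50 or more, against 60.1% of all genes. Uqcrb of complex III, under that level, had -0.05 (interval -0.15 to 0.04). Complex II, which also serves the citric acid cycle, has only nuclear subunits, and its 4 genes had a median of 0.17. The membrane anchor genes Sdhc (208.1 in the knockdown and 174.6 in the LacZ library, 0.25) and Sdhd (154.3 and 137.6, 0.16) and the iron-sulfur subunit gene Sdhb (166.2 and 146.6, 0.18) had intervals above 0. That of the flavoprotein gene Sdha (145.2 and 142.8, 0.02) ran from -0.02 to 0.07. Complex III had a median of 0.23 over 8 genes. Uqcr10 (ENSMUSG00000059534), a small accessory subunit, had 261.7 in the knockdown library and 185.7 in the LacZ library, the highest log2 ratio of any member of mean 50 or more (0.49, interval 0.46 to 0.53). Uqcr11, another small subunit, had 208.1 and 163.9 (0.34), Uqcrq 484.4 and 400.7 (0.27) and Uqcrh 171.1 and 142.0 (0.27). The electron-carrying subunits differed less, with 408.8 and 368.2 for Cyc1, cytochrome c1 (0.15), and 133.3 and 115.9 for Uqcrfs1, the Rieske protein (0.20). The large core proteins had log2 ratios of 0.18 for Uqcrc1 (533.0 and 472.0) and 0.09 for Uqcrc2 (138.9 and 130.7). With the length and GC fit described below removed, the median was 0.19 for the 4 small subunit genes. It was then 0.15 for the core proteins and 0.06 for the electron-carrying subunits.

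Complex IV, cytochrome c oxidase, had the highest nuclear median, 0.32 over 11 genes, and 5 of the 11 (45.5%) were higher past the smaller fold, against 15.9% of all genes. Cox7b (86.6 in the knockdown and 69.2 in the LacZ library, 0.321) was just under it. With the length and GC fit removed, 3 of the 11 were past it, against 15.1% of all genes. Cox7a2l, known for joining complexes III and IV, had 219.9 in the knockdown library and 161.8 in the LacZ library (0.44, interval 0.40 to 0.48). Cox6c had 286.6 and 216.9 (0.40), Cox6a1 730.5 and 556.2 (0.39), Cox8a 851.6 and 655.2 (0.38) and Cox6b1 249.5 and 196.1 (0.35). These are small subunits around the mitochondrially encoded core. Cox4i1, a subunit at which ATP regulates the enzyme, had 692.4 and 566.9 (0.29). The lowest were Cox7a2 (116.6 and 109.4, 0.09), Cox5a (110.6 and 107.6, 0.04) and Cox7c (156.5 and 158.3, -0.02), and the intervals of Cox5a and Cox7c ran across 0. Of the isoform pairs, the widely expressed Cox4i1, Cox6a1, Cox6b1, Cox7a2 and Cox8a were listed. The tissue-restricted Cox4i2, Cox6a2, Cox6b2, Cox7a1, Cox8b, Cox8c and Ndufa4l2 were not analysed here.

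Complex V had a median of 0.14 over 16 genes, with 13 above 0 (81.25%, against 60.1% of all genes). The 5 genes of the catalytic F1 head ran from -0.11 to 0.21, with a median of 0.11. Atp5b, the catalytic beta subunit, had 2592 in the knockdown library and 2399 in the LacZ library (0.11). Its alpha partner Atp5a1 had 711.2 and 765.8 (-0.11, interval -0.13 to -0.09), and Atp5d, the delta subunit of the central stalk, 321.9 and 336.9 (-0.07). The intervals of alpha and beta do not overlap, while Atp5c1, the gamma subunit, had 403.3 and 349.1 (0.21). Atp5e, also of the head, had 312.5 and 272.1 (0.20). The membrane c ring is encoded by Atp5g1, Atp5g2 and Atp5g3, whose mature proteins are the same. They had 339.1, 556.4 and 453.4 in the knockdown library against 314.5, 467.2 and 408.4 in the LacZ library, with log2 ratios of 0.11, 0.25 and 0.15. The 4 small membrane subunit genes spread widely around a median of 0.20. Atp5l, subunit g, had 192.6 and 145.8 (0.40), Atp5k, subunit e, 173.0 and 145.1 (0.25), Atp5j2, subunit f, 451.5 and 405.9 (0.15) and Atp5mpl 127.8 and 121.7 (0.07). With the length and GC fit described below removed, their median was 0.05 and 2 of the 4 were above 0. The 4 peripheral stalk genes had a median of 0.11 as deposited, with 3 of them above 0, against 60.1% of all genes. The lowest, Atp5j, whose exons overlap those of Gabpa, had 146.7 and 149.1 (-0.02). Usmg5, called Atp5md in RefSeq and so not found by its GENCODE symbol, had 223.6 and 221.2 (0.02).

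**Figure D2:**
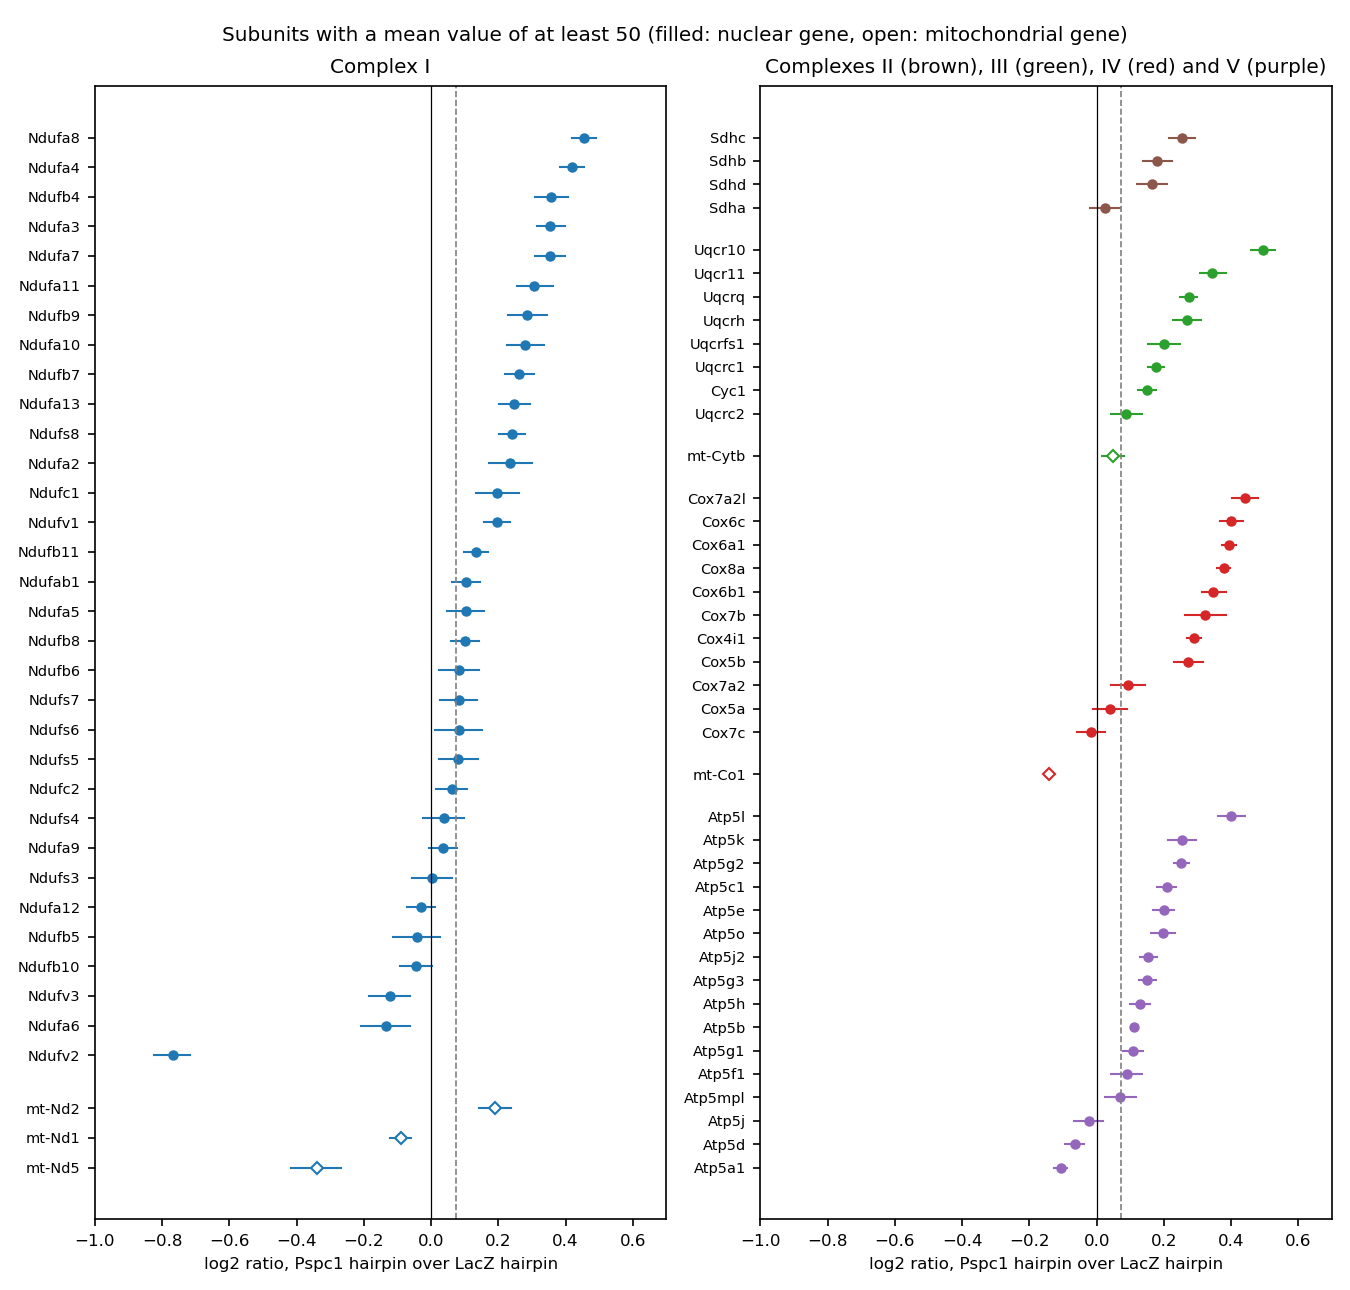
Log2 ratio of knockdown over LacZ for the members of mean 50 or more that are reported by name (points) with 95% counting intervals (lines), sorted within complex, nuclear genes filled and mt- genes open. The dashed line is the median of all genes of that level (0.07), and Ndufv2 stands apart at -0.77 while Uqcr10 is highest at 0.49.

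Log2 ratios went with gene length. Across the 72 nuclear members, Spearman's rho between the log2 ratio and exonic length was -0.28 and between the log2 ratio and GC content 0.18. With the mean value of the gene it was 0.33. Over all 3627 genes of that level with a known length these values were -0.30, 0.24 and 0.18. These are descriptions across genes of the same 2 libraries. Nuclear members were short, with a median exonic length of 1737 bp against 3973 bp for all genes, and complex IV had the shortest nuclear genes (1214 bp). When the part of the log2 ratio fitted on length and GC over all genes was removed, the nuclear median was 0.09, against 0.07 for all genes. The count above 0 was then 52 of 72 (72.2%), against 61.7% of all genes. Past the smaller fold 6 nuclear members were then higher, against 15.1% of all genes, and 1 lower, against 8.33%. Complex medians became 0.02 for I, 0.06 for II, 0.15 for III, 0.18 for IV and 0.10 for V. Complexes III, IV and V stayed above the median of all genes, with 8 of 8, 10 of 11 and 11 of 16 genes above 0. Complexes I and II lay below it, with 19 of 33 genes of complex I (57.6%) and 4 of 4 of complex II above 0. Ndufv2 remained the lowest nuclear member at -0.63, Ndufa4 (0.60) passed Ndufa8 as the highest of complex I, and Atp5l (0.73) was the highest of complex V as before.

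**Figure D3:**
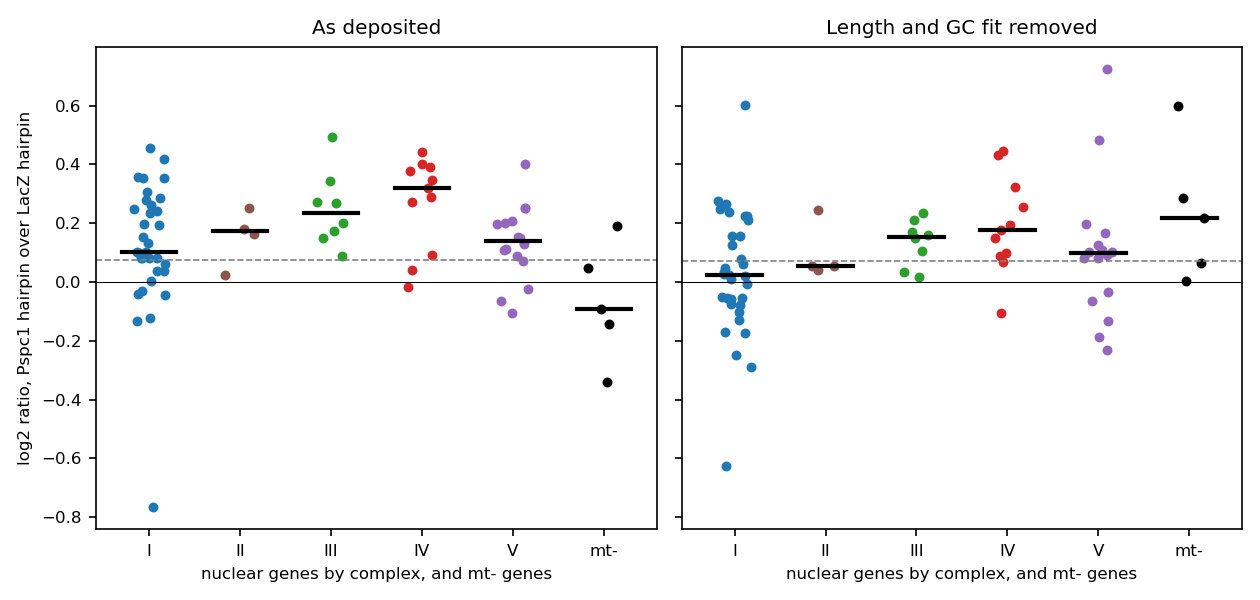
Log2 ratio of nuclear members by complex and of mt- members, as deposited (left) and with the fit on length and GC removed (right); each point is a gene of mean 50 or more, bars are medians and the dashed line the median of all such genes. The median of complex IV is 0.32 on the left and 0.18 on the right, and that of the mt- genes -0.09 and 0.22.

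**Figure D4:**
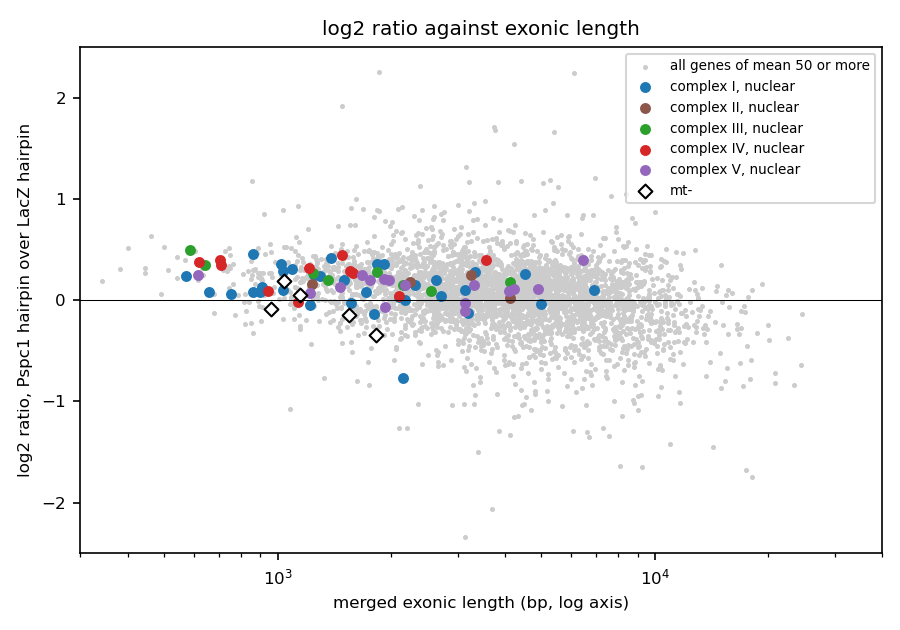
Log2 ratio of knockdown over LacZ against merged exonic length (log axis) for all genes of mean 50 or more (grey), nuclear members (coloured by complex) and mt- members (open diamonds). Most members lie among the shorter genes, where log2 ratios of all genes are mostly above 0.

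Scaling also mattered at this size of difference. Scaling both libraries to the same total moved the log2 ratio of all genes by -0.10, which left medians of 0.07 for the nuclear members, -0.03 for all genes and -5.29e-05 for complex I. With that scaling 3 of the 77 members were higher past the smaller fold, against 8.57% of all genes, and with median-of-ratios scaling 20, against 21.6%. A scaling factor moves all complexes alike, so it leaves their order as it was.

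Mitochondrially encoded genes did not share the small shift of the nuclear ones in the deposited values. The 5 mt- members of mean 50 or more had a median log2 ratio of -0.09, 0.26 below that of the nuclear members. Over the 5 mt- members with under 10% shared words, with no minimum level, the mt- median was 0.05 and the difference from the nuclear median was -0.12. mt-Co1, the catalytic subunit of complex IV, took 77.8% of the summed mt- member values in the knockdown library and 79.3% in the LacZ library. It had 2786 in the knockdown library and 3074 in the LacZ library (-0.14, interval -0.15 to -0.13), while most of its nuclear partners of complex IV were higher. mt-Nd1 and mt-Nd2, membrane subunits of complex I that help pump protons, had 279.0 and 297.1 (-0.09) and 127.7 and 111.9 (0.19). mt-Nd5, another of them, had 45.8 in the knockdown library and 58.0 in the LacZ library (-0.34, interval -0.42 to -0.27). mt-Cytb, the cytochrome b of complex III, had 281.2 and 271.8 (0.05). Of the 5 genes 2 were above 0 (40%, against 60.1% of all genes) and 3 below. With the fit on length and GC removed, the mt- median was 0.22 and all 5 were above 0, against 61.7% of all genes. The sign of the difference from the nuclear members thus turned. Their median GC content of 37.6% lies far from the 52.6% of all genes.

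The levels of the mt- genes were very uneven. Per kb of exon, mt-Co1 had a value of 1803 in the knockdown library and 1990 in the LacZ library, while mt-Nd1 had 292 and 310, mt-Cytb 246 and 238 and mt-Nd2 123 and 108. mt-Nd6, the 1 subunit gene on the other strand, had 32.2 and 29.0 per kb, mt-Nd4 29.2 and 30.5, and mt-Nd5 25.1 and 31.8. At the bottom were mt-Nd3 with 4.42 and 5.42 per kb, mt-Co2 with 2.71 and 2.73 and mt-Co3 with 2.24 and 2.09. mt-Co2 and mt-Co3 are core subunits of the same enzyme as mt-Co1, and all 3 lie on 1 long precursor RNA. No expression value of mt-Atp6, mt-Atp8 or mt-Nd4l was analysed here.

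The 3 genes with the lowest levels were those whose whole or nearly whole sequence also stands in the nuclear copy. In mt-Co2, 100% of 50-base words were also in a transcript of another gene, in mt-Co3 99.9%, in mt-Nd3 98.0%, in mt-Nd4 62.2% and in mt-Co1 51.1%. In mt-Nd1, mt-Nd6 and mt-Cytb the share was 0%, and in mt-Nd2 and mt-Nd5 8.19% and 7.61%. Of the nuclear copies 4 were listed, all at low values. Gm28661 had 1.04 in the knockdown library and 0.827 in the LacZ library beside mt-Co2 with 1.85 and 1.87, and Gm28437 had 1.85 and 1.78 beside mt-Co3 with 1.75 and 1.64. Gm29216, the copy of mt-Co1, had 6.78 and 1.46, the only copy whose interval (1.89 to 2.56 on the log2 scale) lay off 0, and Gm10925, the copy of mt-Atp6, 1.36 and 0.996. How the authors treated reads that map to several places is not given in the sources used here, and the part of these shared words in the low values was not tested. mt-Co1 had the highest level although 51.1% of its words are shared, 28.7% with Gm29216. The intervals of the log2 ratio for mt-Co2 (-0.42 to 0.39), mt-Co3 (-0.33 to 0.52) and mt-Nd3 (-0.72 to 0.13) all run across 0. Outside the members, the ribosomal RNA genes mt-Rnr1 (97.2 in the knockdown and 66.0 in the LacZ library) and mt-Rnr2 (9.95 and 10.7) had log2 ratios of 0.55 and -0.11.

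**Figure D5:**
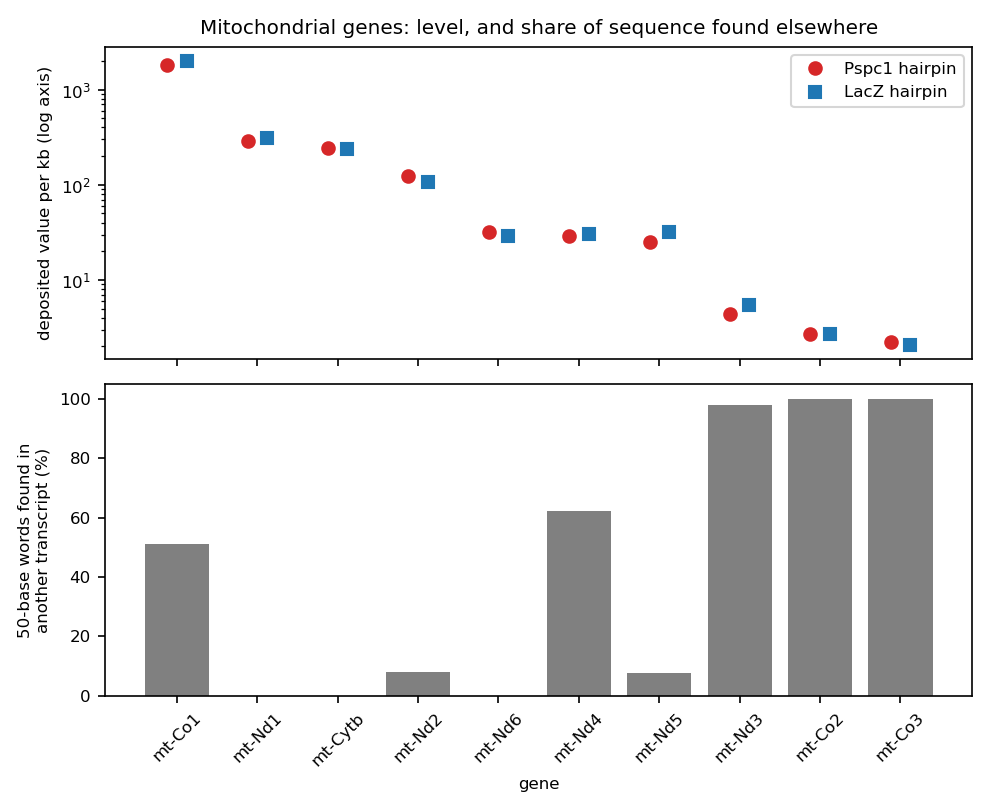
Upper panel, deposited value per kb of exon (log axis) of the 10 mt- members in the knockdown library (circles) and the LacZ library (squares), in order of level; lower panel, percent of each gene's 50-base words found in a transcript of another gene. mt-Co2, mt-Co3 and mt-Nd3, the genes lowest in level, have shares of 98.0% to 100%.

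Nuclear members share less sequence with other genes. At least 10% of 50-base words were shared with another gene in 19 of 78 nuclear members, and 28 had exons that overlap another gene. Without the members with shared words, 54 nuclear and 4 mt- members of mean 50 or more were left, with a nuclear median of 0.19. Of these members 11 were higher past the smaller fold, against 15.9% of all genes. Among those named in the text, the shares were 38.4% for Atp5g2, 25.5% for Uqcrb, 22.1% for Cox7c and 18.3% for Ndufb4. They were 17.9% for Ndufs3, 17.7% for Uqcrc2, 13.8% for Cox7a2l and 11.1% for Atp5g1.

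The remaining 6 nuclear members of mean under 50 were Ndufa1 (48.3 in the knockdown and 41.4 in the LacZ library), Uqcrb (32.9 and 34.2), Ndufb3 (32.1 and 26.4), Ndufs1, Ndufb2 (11.5 and 9.41) and Atp5s (3.03 and 3.45). Atp5s carries an ATP synthase name, and RefSeq lists it as Dmac2l. The gene Ndufb1-ps, left out by the rule and named Ndufb1 in RefSeq, had 75.9 and 60.5.

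Genes that build and serve the chain went both ways. Of 16 assembly factor genes of complex I only 3 had a mean of at least 50. All 3 were above 0, as were 60.1% of all genes. Ecsit had 63.8 in the knockdown and 47.8 in the LacZ library (0.41), Dmac1 66.3 and 52.3 (0.34) and Ndufaf8 59.0 and 48.3 (0.28). Of 7 complex IV assembly genes of that level 5 were above 0, near the 60.1% of all genes, and 2 were higher past the smaller fold, where 15.9% of all genes were. These were Cox14 (138.3 and 98.5, 0.49) and Cox10, which makes the heme A precursor (68.5 and 52.0, 0.39), while Cox19 had 72.2 and 64.7 (0.16). The assembly genes of complex III (Uqcc3 with 52.4 and 50.2, Uqcc2 with 241.3 and 245.1) and complex V (Tmem242 with 115.9 and 93.5, Tmem70 with 55.5 and 60.3) had 2 genes each of that level and none past the smaller fold. None of 4 assembly genes of complex II reached it.

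Among electron carriers and coenzyme Q genes, 4 of 20 listed genes had a mean of at least 50. Cycs, cytochrome c, ferries electrons from complex III to complex IV. It was the only gene of any of these lists past 2-fold, where 0.937% of all genes were 2-fold lower. It had 71.0 in the knockdown library and 201.0 in the LacZ library (-1.50, interval -1.56 to -1.45). Cycs is known for its many processed pseudogenes, and reads shared with them were not measured. Coq5 (61.1 and 53.9, 0.18) and Coq2 (77.8 and 81.7, -0.07), enzymes of coenzyme Q synthesis, differed less. Of 13 citric acid cycle genes 8 were above 0 (median 0.03), near the 60.1% of all genes. Lower past the smaller fold was 1, where 10.7% of all genes were, the succinyl-CoA ligase gene Suclg2 (64.3 and 94.8, -0.56). Citrate synthase, Cs, had 687.8 and 570.1 (0.27).

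Of the mitochondrial DNA expression list, 4 of 26 listed genes reached the level, with Hsd17b10 at 150.9 in the knockdown and 130.4 in the LacZ library (0.21), Fastk at 90.7 and 103.7 (-0.19) and Polg, the mitochondrial DNA polymerase, at 82.5 and 90.4 (-0.13). Of 5 biogenesis regulators 1 was higher past the smaller fold and 1 lower, where 15.9% and 10.7% of all genes were. These were the nuclear receptor gene Esrra (137.7 and 107.1, 0.36) and the cofactor gene Hcfc1 (186.0 and 266.5, -0.52). Yy1 had 69.7 and 85.0 (-0.28). Of 10 supercomplex and cristae genes 5 were above 0 and 5 below, against 60.1% and 39.9% of all genes. Cox7a2l, already counted in complex IV, was the 1 past the smaller fold, where 15.9% of all genes were higher and 10.7% lower. Immt, the mitofilin of cristae junctions, had 84.5 and 104.2 (-0.30) and Chchd3, its partner, 82.3 and 95.2 (-0.21).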

How the data were processed

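Poly-A RNA of MS1 cells was sequenced with 1 library per group, grouped by the treatment label. The submitters' processing notes name build mm10, DESeq 1.39.0, featureCounts 2.0.0, HISAT2 2.1.0 and Trimmomatic 0.39. How multiply mapping reads were treated, and with which annotation, is not given in the sources used here. Values deposited by the authors are a scaled signal per gene. They were used as deposited, since they were already scaled by the authors, and divided by the step per library to obtain reads (100% of values whole within 0.01 reads). Symbols were found for 11399 of 11405 identifiers. GENCODE M21, on the same build, gave symbols, merged exonic lengths, overlaps and transcripts, and RefSeq the promoters. A gene was called past a fold of 2 or a log2 ratio of 0.322 at a mean of at least 50, with no test across samples. Counting intervals are Clopper-Pearson at 95%. The length and GC fit was quadratic over genes of mean 20 or more. Steps were tested on simulated reads. Every member may be named. From each other list the 3 genes with the largest absolute log2 ratio at mean 50 or more are named, with Pspc1 and markers. For 1 member and 1 gene of another list the single values are not reported here, though both are in the counts and medians. The members and lists were chosen with earlier results of these data known. Usmg5, Ndufb1-ps, the nuclear copies and the ribosomal RNA genes were named after their values were seen. Alternatives were 3 scalings, a pseudocount of 5, filters at 20, 100 or none, the length and GC fit, and leaving out members with overlaps or shared words. Python 3.11.15, numpy 2.4.6, pandas 2.3.3, scipy 1.17.1 and matplotlib 3.10.9 were used.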

Additional observations from a re-analysis of the deposited data

How the results depend on the processing

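No paired analysis was possible because each group has 1 library, and for the same reason no replicate could be left out. The counts of 0 members 2-fold higher or lower held under every alternative run. Scaled by the total of listed genes, medians were 0.0658 for nuclear members, -5.29e-05 for complex I, 0.0687 for II, 0.13 for III, 0.22 for IV, 0.0353 for V and -0.19 for mt- members. Of the 77 members 3 were then higher past the smaller fold, against 8.57% of all genes. With median of ratios the medians, in the same order, were 0.22, 0.15, 0.22, 0.28, 0.37, 0.19 and -0.0405. Past the smaller fold 20 of the 77 were then higher, against 21.6% of all genes, and 1 lower, against 9.01%. With the length and GC fit removed the medians were 0.0850 for nuclear members, 0.0242 for I, 0.0552 for II, 0.15 for III, 0.18 for IV and 0.22 for mt- members. The difference of mt- minus nuclear was then 0.13. Past the smaller fold 7 of the 77 were higher, against 15.1% of all genes, and 1 lower, against 8.33%. At a mean of at least 100 the complex I median was 0.17, the mt- median -0.0210 and the difference -0.21. At that level 1 member was lower past the smaller fold, against 7.87% of all genes. Complex V (0.14) then had the lowest complex median in place of complex I. With no filter the mt- median was -0.0362 and the difference -0.21. Without members that have overlapping exons the mt- median was 0.0485 (mt-Cytb alone), the difference -0.15 and the lower count 1, against 10.7% of all genes. Without members that share words, an alternative chosen after seeing the data, as was the next, the mt- median was -0.0210 and the difference -0.21. Over the 5 mt- members with under 10% shared words, with no filter, they were 0.0485 and -0.12. With a pseudocount of 5 and with a trimmed mean of M values the lower count was 1, against 9.975% and 9.176% of all genes. The other 86 values moved by less than 0.0424, the median distance from a member's log2 ratio to its interval's bound, or, for counts, within 1.5 times. The causes of these changes were not tested. Depth did not limit the members of mean 50 or more, each with at least 2324 reads in a library, but the lack of replicates limits all of them.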
